A study of Mus musculus with 3 samples.

Results

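The EGF receptor family comprises 4 receptor tyrosine kinases, encoded by Egfr, Erbb2, Erbb3 and Erbb4, and the growth factors that bind them. The genes described here are these 4 receptors and 6 ligands, Hbegf, Areg, Ereg, Tgfa, Btc and Nrg1, taken by gene name from a count table of 56748 genes. All 10 genes were in the table, as 11 entries, because Nrg1 has a short extra one. The study asked which transcripts respond to oncostatin M (OSM), a cytokine of the gp130 family, in adult cardiomyocytes (ACMs). ACMs are ventricular muscle cells, taken here from WT mice aged 8 to 10 weeks of either sex and treated in serum-free culture. RNA was pooled within each treatment, which gave 3 libraries. The vehicle library came from ACMs given vehicle with 0.1% BSA, the OSM library from ACMs given 10 ng/mL mouse OSM, and the IL-6 library from ACMs given 10 ng/mL human IL-6, another gp130 cytokine, each for 16 h. The counts summed to 24939980 with vehicle, 26362446 with IL-6 and 30773001 with OSM.

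Ligands of this family are made as membrane proteins and are released by proteases at the cell surface. A bound receptor pairs with another member of the family, and the pair signals through the RAS-ERK and PI3K-AKT cascades. ERBB2 binds no known ligand and acts as a partner, while ERBB3 has little kinase activity of its own. In the heart, NRG1 from endothelial cells acts on ERBB4 and ERBB2 of the cardiomyocyte, and this signal is needed for the heart to form and to keep its function.

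Each treatment had a single library, so there are no replicates and no difference has a replicate check. A comparison is between libraries, not between treatments. A fold change is the ratio of counts after TMM scaling, given for genes with at least 10 counts in the 2 libraries together, with the 95% Clopper-Pearson interval of these counts. Higher and lower are used as calls for genes whose interval lay entirely past 2-fold. Intervals and floors cover counting error only, because each treatment had a single library. Reads copied by PCR and not tagged by molecule are not independent, so the intervals can be too narrow even for this error. Where a library had 0 counts, a floor of 3 counts per library was used, which as CPM (counts scaled to the library total) is 0.120 in the vehicle library, 0.114 in the IL-6 library and 0.0975 in the OSM library. A fold against this floor is not a 95% limit, and calls were made by the counting interval. Levels are compared between genes only as FPKM, here the count divided by gene length and by a constant of the library. In RNA pooled from many cells, fewer cells of a type and less RNA per cell cannot be told apart.

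In the OSM library, 2 of the 9 members compared with vehicle were higher, Egfr and Hbegf, where 3.7% of all 15537 compared genes were higher. The 1 member called lower was Erbb4, against 5.46% of the compared genes. Between the IL-6 and vehicle libraries, 0 of 7 compared members were higher and 0 were lower, against 1.77% and 1.74% of 15472 genes. In the OSM library compared with the IL-6 library, 3 of 9 members were higher, Egfr, Hbegf and Tgfa, against 4.24% of 15544 genes, and Erbb4 was lower, against 5.44%. The OSM and IL-6 comparisons with vehicle share the vehicle library, and both comparisons of OSM share the OSM library. Egfr and Nrg1 reached 10 counts only through their counts with OSM, so whether they were compared depended on the library in which they were high. The median log2 fold change of all compared genes was -0.00137 in the OSM and vehicle pair, -0.00192 in the IL-6 and vehicle pair and 0.00217 in the OSM and IL-6 pair.

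**Figure D1:**
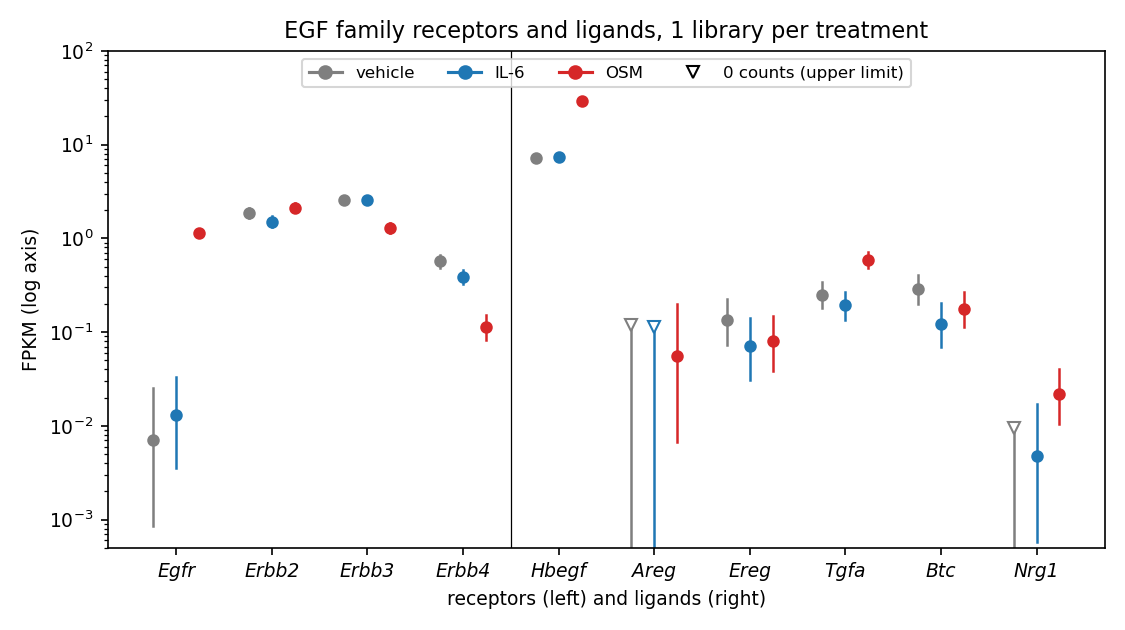
FPKM of the 4 receptors and 6 ligands on a log axis in the vehicle, IL-6 and OSM libraries, with exact 95% Poisson intervals of the counts as lines and open triangles at the upper limit where a library had 0 counts. Egfr and Hbegf are highest with OSM, and Erbb4 is lowest with OSM.

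Egfr (ENSMUSG00000020122), which encodes the EGF receptor, is a plus-strand gene of chromosome 11 (GRCm39, 16702203 to 16868158) whose canonical transcript has 28 exons. The libraries held 2 counts for vehicle (0.00698 FPKM), 4 for IL-6 (0.0130 FPKM) and 386 for OSM (1.14 FPKM). Egfr was near the floor of 3 counts in the vehicle and IL-6 libraries and far above it with OSM. The log2 fold change was 7.34 (5.48 to 10.40) for OSM against vehicle, a ratio of 163 with an interval from 44.7 to 1347. Against IL-6 it was 6.45 (5.08 to 8.33). The width of these intervals comes from the 2 and 4 counts in the lower libraries. Among the 15157 compared genes with counts in both libraries, Egfr ranked 2 from the highest in OSM against vehicle. The IL-6 and vehicle counts together were under 10, and Egfr was not among the genes compared between these libraries.

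The sequence before the start of Egfr is shown because this gene had the largest fold change among the members compared for OSM against vehicle. It is the RefSeq window of 250 bases upstream of the start, from a table on GRCm38.p6, and it matched GRCm39 exactly at 1 place, chr11:16701953-16702202 on the plus strand. Of the 10 members, the windows of 6 were searched. Erbb3, Hbegf, Ereg and Nrg1 were not searched, so nothing is known here of motifs before their starts. Motifs were searched on both strands as TTCNNNGAA, the letters bound by STAT factors, TGACGTCA, the cAMP response element (CRE), and TGANTCA, the AP-1 element. In all 32851 windows of 250 bases, TTCNNNGAA was found in 7.02%, TGACGTCA in 1.55% and TGANTCA in 6.75%. The only match among the 6 windows was a CRE in that of Areg, which encodes amphiregulin, at positions -61 to -54 from the start, at chr5:91287208-91287457 on the plus strand. The capitals mark this match, for which the window of Areg is shown beside that of Egfr, where none of the 3 motifs was found. These windows hold 5 (Egfr) and 7 (Areg) bases of canonical exons. The windows of Erbb2, Erbb4, Tgfa and Btc overlapped exons of their canonical transcripts by 30 to 250 bases and are not printed.
Egfr: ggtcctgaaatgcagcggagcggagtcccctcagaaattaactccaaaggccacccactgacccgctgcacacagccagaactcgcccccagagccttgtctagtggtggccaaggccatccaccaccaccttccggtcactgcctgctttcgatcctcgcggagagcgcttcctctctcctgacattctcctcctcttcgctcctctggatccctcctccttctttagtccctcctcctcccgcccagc
Areg: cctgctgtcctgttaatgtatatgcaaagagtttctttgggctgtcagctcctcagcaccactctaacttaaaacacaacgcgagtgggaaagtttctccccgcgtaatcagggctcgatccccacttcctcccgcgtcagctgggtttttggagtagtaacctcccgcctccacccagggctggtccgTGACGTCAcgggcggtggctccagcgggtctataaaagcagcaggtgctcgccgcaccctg

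Erbb4 (ENSMUSG00000062209), the receptor that binds neuregulins and carries their signal in cardiomyocytes, was lower with OSM. The gene, with 27 exons, is on the minus strand of chromosome 1 (68071345 to 69147218). The libraries held 177 counts for vehicle (0.566 FPKM), 129 for IL-6 (0.385 FPKM) and 42 for OSM (0.114 FPKM). The OSM library had the smallest level and the vehicle library the largest. The log2 fold change was -2.32 (-2.84 to -1.83) for OSM against vehicle, a 5.00-fold difference, and relative to IL-6 it was -1.76 (-2.30 to -1.25). Between IL-6 and vehicle it was -0.56 (-0.89 to -0.22), within 2-fold. Erbb4 was not called in either comparison of OSM with a threshold of 4-fold or by edgeR's exact test at an assumed coefficient of variation of 0.4.

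The log2 fold changes with OSM tended to be lower for longer genes, and Erbb4 (12355 bases) and Egfr (11326 bases) are long. Across 12508 compared protein-coding genes, which are not independent replicates, Spearman's rho of log2 fold change and length was -0.40 for OSM against vehicle and -0.39 relative to IL-6. For IL-6 against vehicle, over 12475 genes, it was -0.05. The 500 protein-coding genes nearest to Erbb4 in length had a median log2 fold change of -0.50 with OSM against vehicle, and those nearest to Egfr had -0.43. With these medians subtracted, Erbb4 had -1.83 and Egfr 7.78. Against IL-6, Erbb4 had -1.26 after the subtraction and was no longer called. The part of the length trend in these results was not tested.

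**Figure D2:**
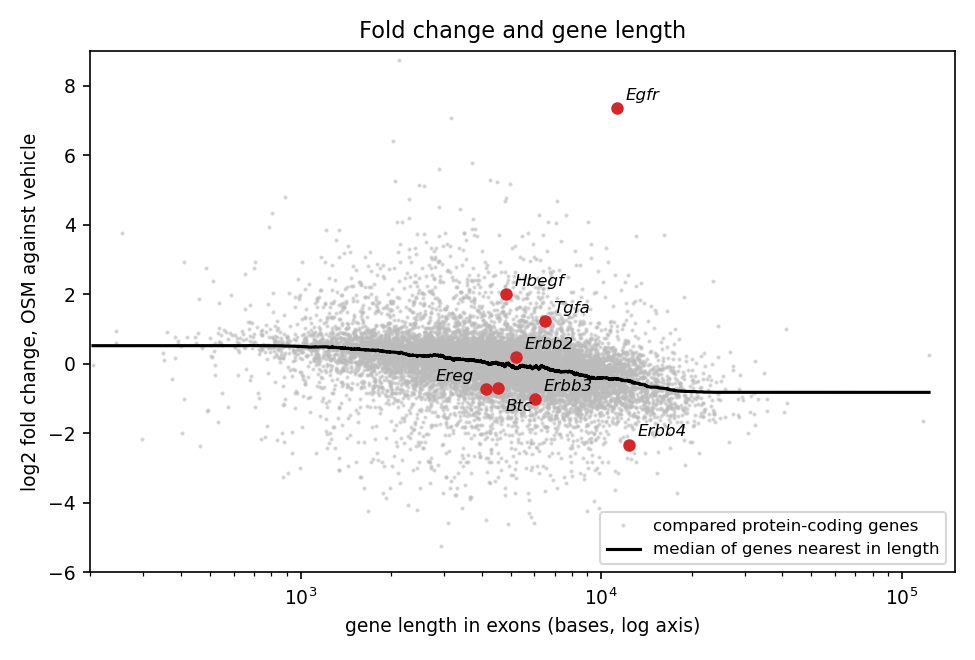
Log2 fold change for OSM against vehicle plotted against gene length in bases on a log axis, with compared protein-coding genes in grey, the median of the 500 genes nearest in length as a black line and the members as red points. Erbb4 lies below the line and Egfr above it at similar lengths.

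Erbb3 (ENSMUSG00000018166), the neuregulin receptor with weak kinase activity, had 394 counts for vehicle (2.59 FPKM), 419 for IL-6 (2.57 FPKM) and 232 for OSM (1.29 FPKM). The vehicle and IL-6 levels were close, and the OSM level was the smallest. The log2 fold change was -1.01 (-1.25 to -0.77) for OSM against vehicle and -0.995 (-1.23 to -0.76) relative to IL-6. These intervals hold the 2-fold line, so that Erbb3 was not called. Between IL-6 and vehicle it was -0.01 (-0.21 to 0.19). Erbb2 (ENSMUSG00000062312), the partner receptor, had 245 counts for vehicle (1.86 FPKM), 212 for IL-6 (1.502 FPKM) and 330 for OSM (2.12 FPKM). The OSM level was the largest, and the log2 fold change against vehicle was 0.18 (-0.06 to 0.43), an interval that holds 0. Relative to IL-6 it was 0.50 (0.24 to 0.75), and between IL-6 and vehicle -0.31 (-0.58 to -0.04), both within 2-fold. The gene overlaps Mien1 on the opposite strand by 9 bases, and Mien1 had 200, 264 and 424 counts with vehicle, IL-6 and OSM. Whether the counting used the strand is not given in the sources used here.

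Per length, the order of the receptor transcripts differed between libraries. With vehicle and with IL-6, the FPKM order from the top was Erbb3, Erbb2, Erbb4 and Egfr, and the counting interval of each neighbouring ratio lay above 1. With OSM, Erbb2 was the highest, 1.64 times Erbb3 (1.38 to 1.95). Erbb3 and Egfr did not differ beyond counting error there, with a ratio of 1.13 (0.957 to 1.34), and Egfr was 10.0 times Erbb4 (7.28 to 14.1). The summed FPKM of the 4 receptors was 5.02 with vehicle, 4.47 with IL-6 and 4.67 with OSM. Egfr made up 0.139% of this sum with vehicle, 0.292% with IL-6 and 24.5% (20.5 to 28.8) with OSM. Erbb4 made up 11.3% (8.87 to 14.2) with vehicle, 8.62% (6.56 to 11.2) with IL-6 and 2.44% (1.59 to 3.65) with OSM. The sum was similar in the 3 libraries. Its make-up differed with OSM, while the vehicle and IL-6 intervals of the share overlapped for each receptor.

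**Figure D3:**
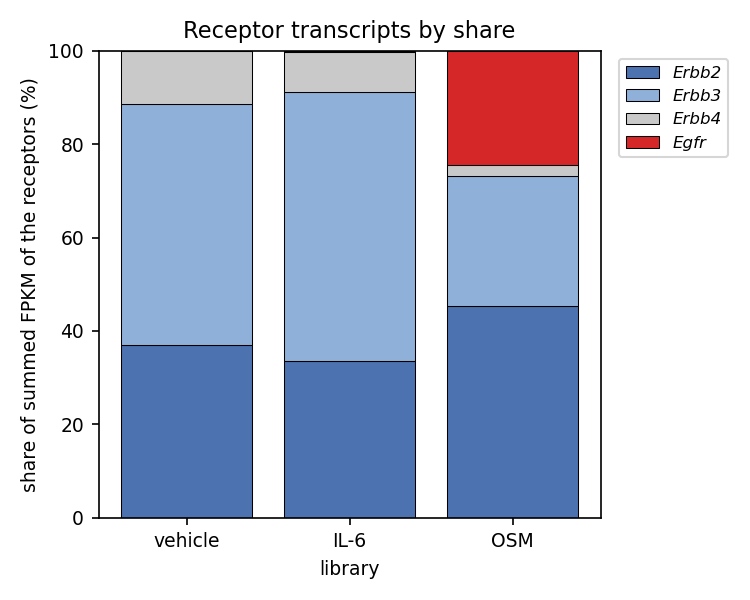
Share of the summed FPKM of Erbb2, Erbb3, Erbb4 and Egfr, in percent, in each library as stacked bars. Egfr is 0.139% with vehicle, 0.292% with IL-6 and 24.5% with OSM.

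Among the ligands, Hbegf (ENSMUSG00000024486) had the most transcript in every library. It encodes heparin-binding EGF, a ligand of EGFR and ERBB4, and is a minus-strand gene of chromosome 18 (36637980 to 36648858). The libraries held 889 counts for vehicle (7.27 FPKM), 966 for IL-6 (7.37 FPKM) and 4244 for OSM (29.4 FPKM). The vehicle and IL-6 libraries were close, and the OSM library stood above both. The log2 fold change was 2.01 (1.90 to 2.11) for OSM against vehicle and 1.99 (1.89 to 2.10) relative to IL-6, a 4.02-fold and a 3.98-fold difference. Between IL-6 and vehicle it was 0.02 (-0.11 to 0.15). As for Erbb4, the calls of Hbegf were lost with 4-fold and with the exact test at 0.4. The 500 genes nearest in length had a median log2 fold change of -0.00291 for OSM against vehicle. With OSM it stood at percentile 89.0 of the expressed protein-coding genes by FPKM, compared with 67.7 with vehicle. Hbegf made up 91.5% of the summed FPKM of the 6 ligands with vehicle, 94.95% with IL-6 and 97.0% with OSM.

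Tgfa (ENSMUSG00000029999), which encodes the EGFR ligand TGF-alpha, had 41 counts for vehicle (0.250 FPKM), 34 for IL-6 (0.193 FPKM) and 114 for OSM (0.588 FPKM). OSM was again the highest library. The log2 fold change was 1.60 (1.04 to 2.201) for OSM against IL-6, with the lower limit just past 2-fold, and 1.23 (0.70 to 1.78) for OSM against vehicle, which was not called. Between IL-6 and vehicle it was -0.37 (-1.07 to 0.32). With total counts in place of TMM, Tgfa was no longer called against IL-6 (1.52), nor was it with 4-fold or with the exact test at 0.4.

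The other ligands had few counts. Btc, which encodes betacellulin, a ligand of EGFR and ERBB4, had 33 counts for vehicle (0.289 FPKM), 15 for IL-6 (0.122 FPKM) and 24 for OSM (0.178 FPKM). The IL-6 level was the smallest, and the log2 fold change was -1.24 (-2.22 to -0.32) for IL-6 against vehicle and -0.71 (-1.53 to 0.10) for OSM against vehicle. Relative to IL-6, the OSM library had 0.54 (-0.45 to 1.57) for Btc. Ereg, which encodes epiregulin, had 14, 8 and 10 counts with vehicle, IL-6 and OSM, and log2 fold changes of -0.73 (-2.06 to 0.54) for OSM against vehicle, -0.91 (-2.37 to 0.45) between IL-6 and vehicle and 0.18 (-1.31 to 1.72) between OSM and IL-6. Areg had 0, 0 and 2 counts and was not compared. For Ereg and Areg, no difference was detectable at this depth.

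Nrg1 (ENSMUSG00000062991), the ligand that cardiomyocytes receive from endothelial cells, was close to 0 in ACMs. It had 0 counts for vehicle, 2 for IL-6 (0.00478 FPKM) and 10 for OSM (0.0217 FPKM), over a gene length of 15433 bases. Against the floor of 3 counts in the vehicle library, it was at least 2.81-fold higher with OSM. The lower 95% counting limit of the fold was 1.89, so that Nrg1 was not called, and it was called higher with the median of genes of like length subtracted. Against IL-6 the log2 fold change was 2.18 (-0.05 to 5.41). The short extra Nrg1 entry, ENSMUSG00000118541, of 186 bases, had 0 counts in each library.

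**Figure D4:**
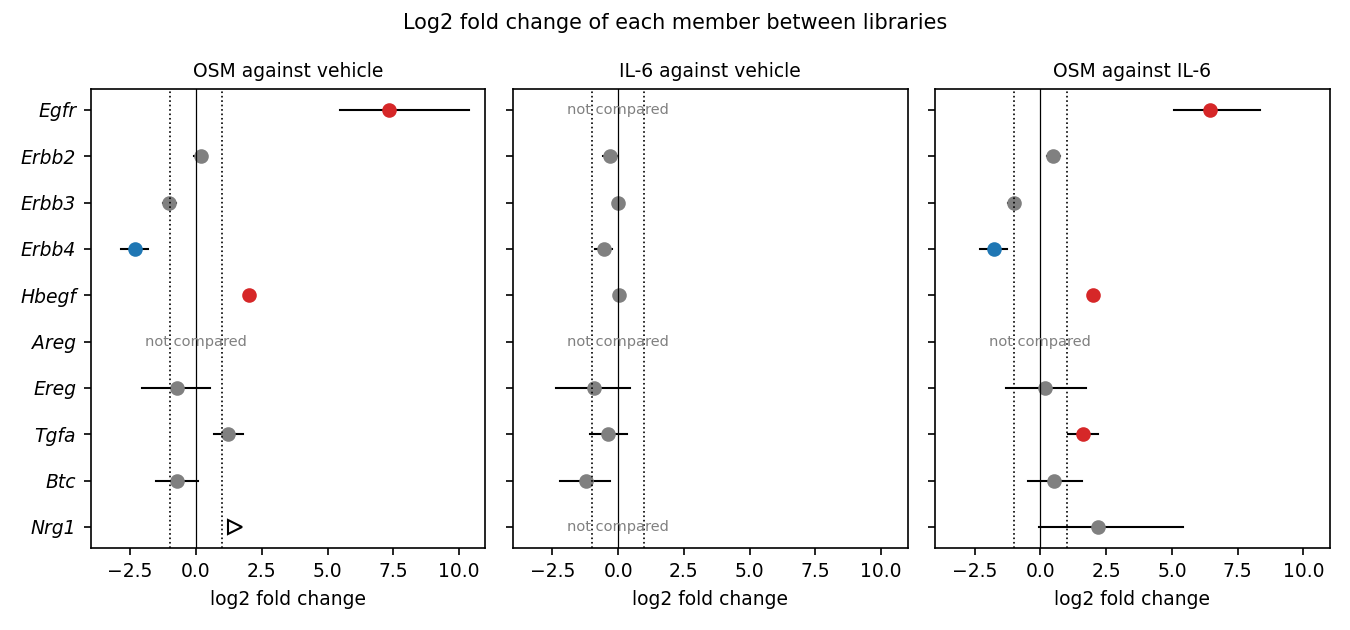
Log2 fold change of each member in the 3 comparisons, with 95% counting intervals as lines, called members in red (higher) or blue (lower), dotted lines at 2-fold and an open triangle at the fold of Nrg1 against the floor of 3 counts. Egfr and Hbegf lie to the right of the 2-fold line in both comparisons of OSM, and Erbb4 to the left.

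Among the 6 ligands, Hbegf was separated from the next of them in each library, by a factor of 25.2 (17.8 to 36.8) over Btc with vehicle, 38.1 (27.1 to 55.4) over Tgfa with IL-6 and 49.98 (41.5 to 60.7) over Tgfa with OSM, all per length. Btc and Tgfa did not differ beyond counting error with vehicle or with IL-6, and with OSM Tgfa was 3.31 times Btc (2.12 to 5.37). The remaining family ligands Egf, Epgn, Nrg2, Nrg3 and Nrg4 were listed as well, and 3 of these 5 were compared. Some of these lay between Hbegf and the next of the 6 in FPKM, namely Epgn with vehicle (0.372 FPKM) and Egf (0.406 FPKM) and Nrg4 (0.358 FPKM) with IL-6. Egf, which encodes EGF itself, had 73 counts with vehicle, 124 with IL-6 and 85 with OSM. Nrg4, a neuregulin that binds ERBB4, had 22, 59 and 12 counts, and was lower with OSM than with IL-6, with a log2 fold change of -2.44 (-3.47 to -1.53). Epgn, which encodes epigen, had 17, 1 and 12 counts, and was lower with IL-6 than with vehicle by a ratio with a wide interval, a log2 fold change of -4.19 (-9.57 to -1.51). Nrg2 had 2, 4 and 3 counts and Nrg3 had 0 in each library.

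Genes were then taken in order of the pathway, as fixed lists. Over all 67 genes of the lists, the other family ligands included, 61 were compared for OSM against vehicle, of which 8 were higher (13.1%) and 2 lower (3.28%), with a median log2 fold change of 0.17. The same lists had 1 higher and 1 lower of 62 for IL-6 against vehicle, with a median of -0.03. For OSM against IL-6 they had 9 higher and 2 lower of 62, with a median of 0.23. The background shares are those given above for all compared genes.

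The proteases and trafficking factors that release ligands, among them Adam10, Adam17 and Rhbdf1, were listed next. Of 10 listed, 8 were compared for OSM against vehicle, and 0 were higher and 0 lower, with log2 fold changes from -0.56 to 0.99 and a median of 0.09. Adam17, the main sheddase of several of these ligands, had 1377 counts with vehicle, 1537 with IL-6 and 1517 with OSM. Adam19 was highest of the list in fold, with 735, 797 and 1736 counts and a log2 fold change of 0.99 (0.87 to 1.12). With the median of genes of like length subtracted, it was 1.204 (1.079 to 1.330), which is past 2-fold. Adam12 had 8, 4 and 0 counts and Rhbdl2 had 0 in each library.

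Of the ligand partners, Cd44, which encodes a cell surface glycoprotein that can hold heparin-binding EGF through its heparan sulfate chains, had 632 counts for vehicle (3.69 FPKM), 549 for IL-6 (2.99 FPKM) and 3968 for OSM (19.6 FPKM). The log2 fold change was 2.40 (2.28 to 2.53) for OSM against vehicle and 2.71 (2.58 to 2.84) relative to IL-6. The median of the 2 listed genes was 1.71 against vehicle. Cd9, the other listed partner, had 10, 8 and 24 counts and was not called. The OSM library was the highest for both genes.

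Of 9 receptor inhibitors, such as Errfi1 and the Lrig genes, 8 were compared for OSM against vehicle, and 0 were higher and 0 lower, with a median of 0.05. Their log2 fold changes ran from -0.91 for Cbl to 0.86 for Cblb, which encode ubiquitin ligases. Cblb had 1.261 (1.022 to 1.503) after the subtraction for length, past 2-fold. Lrig3 had 0 counts with vehicle, 10 with IL-6 and 7 with OSM, and against the floor was at least 3.11-fold higher with IL-6 than with vehicle, with a lower counting limit of 2.09-fold. It reached 10 counts only through the IL-6 library. Among 10 adaptors, 9 were compared, with a median of -0.41, and Sos1 and Gab1 were lower with OSM than with vehicle. Sos1, an exchange factor for RAS, had 1302, 1349 and 688 counts with vehicle, IL-6 and OSM, a log2 fold change of -1.17 (-1.30 to -1.03). Gab1, a docking protein, had 1225, 1372 and 646 counts and -1.17 (-1.31 to -1.03). With the median of genes of like length subtracted, neither was called against vehicle, at -0.73 (-0.86 to -0.59) for Sos1 and -1.08 (-1.22 to -0.94) for Gab1, and the median of the list was -0.19. Relative to IL-6, Gab1 was lower at -1.23 (-1.37 to -1.09), and at -1.18 (-1.32 to -1.05) after the subtraction, while Sos1 at -1.11 (-1.25 to -0.98) was not called. In the ERK and PI3K cascade, 17 of 17 genes were compared, and 0 were higher and 0 lower in each of the 3 comparisons. Their log2 fold changes with OSM against vehicle ran from -0.95 to 0.65, with a median of 0.11.

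ERK-induced targets were the list with the most called genes. Of 14 listed, 14 were compared for OSM against vehicle, 7 were higher and 0 lower, with a median log2 fold change of 1.23, or 1.28 after subtraction of the genes of like length. For IL-6 against vehicle, 13 were compared and 0 were called in either direction, with a median of 0.01. For OSM against IL-6, 8 of 14 were higher and 0 lower, with a median of 1.49. Dusp6, a phosphatase of ERK, had 285, 251 and 2123 counts with vehicle, IL-6 and OSM, a log2 fold change of 2.65 (2.47 to 2.83) against vehicle. Dusp5, another ERK phosphatase, had 237, 249 and 1215 counts and 2.11 (1.91 to 2.32). The transcription factor Egr1 had 1241, 1157 and 3921 counts and 1.41 (1.32 to 1.51). The OSM library was higher than the others for these genes. Between IL-6 and vehicle, Dusp6 had -0.28 (-0.53 to -0.03), Egr1 -0.20 (-0.32 to -0.08) and Dusp5 -0.03 (-0.29 to 0.23), all within 2-fold.

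Phlda1, Ier3, Fosl1 and Etv4 were the other targets called against vehicle. Phlda1 had 1574, 1801 and 8388 counts, and Ier3 had 2036, 2189 and 8997 counts. Fosl1, an AP-1 subunit, had 73, 102 and 291 counts. Etv4, an ETS factor, had 0, 0 and 12 counts and against the floor was at least 3.37-fold higher with OSM than with vehicle, with a lower counting limit of 2.34-fold. It reached 10 counts only through the OSM library, so that its place among the 7 depended on that library. Plaur, with 27, 15 and 66 counts, was called against IL-6 only. Spry2, Spry4, Spred1, Etv5, Myc and Dusp4 were not called in either comparison of OSM, with log2 fold changes against vehicle from -0.08 for Dusp4 to 0.998 for Spred1. After the subtraction for length, Spred1 had 1.179 (1.0195 to 1.341) against vehicle, past 2-fold, while Fosl1 at 1.04 (0.71 to 1.38) and Plaur at 1.77 (0.95 to 2.69) were no longer called against IL-6. Transcript counts do not measure the activity of ERK.

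**Figure D5:**
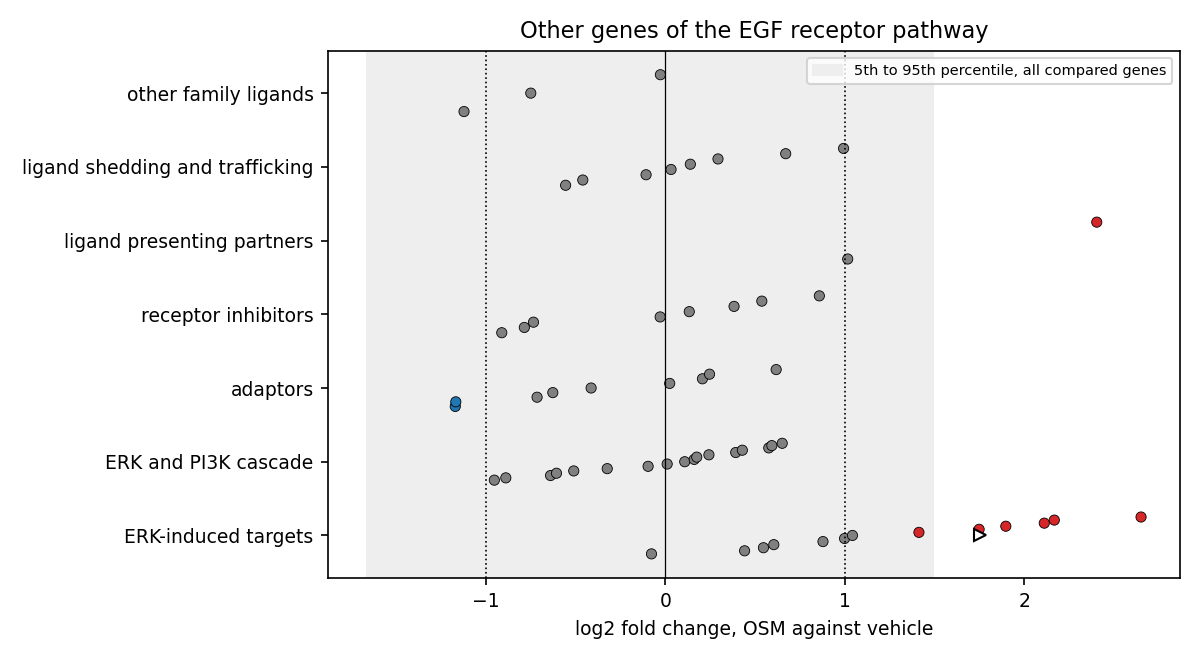
Log2 fold change for OSM against vehicle of the compared genes of each list, with called genes in red (higher) or blue (lower), an open triangle at the fold of Etv4 against the floor of 3 counts, dotted lines at 2-fold and the 5th to 95th percentile of all compared genes in grey. Of the ERK-induced targets 7 are higher, while 0 of 17 genes of the ERK and PI3K cascade are called.

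The OSM label was checked by Socs3 and Osmr, a feedback inhibitor and a receptor subunit of the OSM pathway. Socs3 had 670 counts with vehicle, 646 with IL-6 and 18194 with OSM. The difference between OSM and vehicle was 4.52 (4.404 to 4.63) on the log2 scale. Osmr had 1023, 1199 and 2929 counts, and both genes were higher with OSM than in either other library. The members were also set beside the genes of most similar pattern over both log2 fold changes against vehicle, by Euclidean distance among 11673 genes with at least 100 counts in all and a count in each library. The value of Egfr for IL-6 against vehicle enters these distances although it rests on 4 and 2 counts, a log2 ratio of 0.90 (-1.90 to 4.37), so that the distances of Egfr are loose. Nearest to Hbegf was Myd88 at a distance of 0.020, then Rgcc and Marcks. Nearest to Egfr was Steap4 at 1.12, then Slc10a6 and Thbd, and nearest to Erbb4 was Zfp40 at 0.034, then Gm15608 and Gm44421.

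The labelled cell type and others were checked by fixed marker lists. All 8 cardiomyocyte markers were detected, with a summed FPKM of 8633 with vehicle, 8910 with IL-6 and 11114 with OSM. Actc1 was the most abundant with vehicle and IL-6, and with OSM Myl2 (3518 FPKM) and Actc1 (3517 FPKM) were nearly equal. The long genes Ryr2 and Ttn were lower with OSM, and were not called with the median of genes of like length subtracted. All 8 endothelial markers had counts, with a sum of 7.13, 7.21 and 7.72 FPKM and Cdh5 the most abundant. Fibroblast markers were detected for 8, 7 and 5 of 8 genes, with a sum of 0.860, 0.770 and 1.08 FPKM and Dcn the most abundant, with Col1a1 at 0 with IL-6 and Col1a1, Tcf21 and Postn at 0 with OSM. Macrophage markers were detected for 5, 4 and 5 of 8 genes, with a sum of 1.96, 1.72 and 2.45 FPKM and Csf1r the most abundant, with C1qa, C1qb and Ptprc at 0 in each library and Adgre1 at 0 with IL-6. Smooth muscle and pericyte markers were detected for 6, 6 and 8 of 8 genes, with a sum of 13.3, 13.0 and 15.3 FPKM and Acta2 the most abundant, with Kcnj8 at 0 with vehicle and IL-6, Tagln at 0 with vehicle and Cnn1 at 0 with IL-6. Epicardial and mesothelial markers were detected for 4 of 5 genes in each library, with a sum of 0.489, 0.980 and 0.345 FPKM, and the most abundant was Krt19 with vehicle. With IL-6, Krt19 (20 counts) and Msln (33 counts) had nearly equal FPKM, and with OSM Msln (13 counts, 0.142 FPKM) and Upk3b (14 counts, 0.133 FPKM) were close. Upk1b was at 0 with vehicle and IL-6, and Krt19 was at 0 with OSM. Of these markers, Krt19 was lower with OSM than with vehicle, Krt19 and Col1a2 were lower and Lyz2 and Cnn1 higher with OSM than with IL-6, and Msln was higher with IL-6 than with vehicle. The call of Lyz2 was lost after the subtraction for length. The part of other cell types in the results was not tested.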

How the data were processed

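RNA of ACMs from 3 treatments was pooled and sequenced as 1 library each. The authors deposited whole-number counts per gene, without normalization. The authors also deposited FPKM values for the same genes, made from these counts. The submitters' processing notes name fastp, HISAT2 2.2.1, featureCounts 2.0.6 and edgeR 4.0.16 with the mm39 build. The study's methods name other versions of featureCounts and edgeR. No sample column was left unmatched (0 columns).

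Scaling used TMM factors (edgeR 4.0.16, R 4.3.3), fitted for the libraries of each comparison over genes with at least 10 counts in the pair. Intervals were computed with scipy 1.17.1. A fold against 0 counts is given as a bound, taken at 3 counts per library. Alternatives were DESeq2 1.42.0 factors, other scalings, filters and thresholds, edgeR's exact test with an assumed dispersion, and subtraction of the median of genes of like length. The calling rule was tested on simulated data. Exons were taken from GENCODE M39.

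The genes named are all 10 members in every library and comparison, the other family ligands, each called gene of the pathway lists with the rest given by counts and range, Socs3 and Osmr as a check of the OSM label, and the 3 genes nearest in pattern to each member called for OSM against vehicle. Other genes named beside these, such as Adam17, Adam19, Cd9, Mien1, single markers and list members at the ends of a range, were chosen after their values were seen. The members and lists were chosen with earlier results of these data known.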

Additional observations from a re-analysis of the deposited data

How the results depend on the processing

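No paired analysis was possible because each treatment had 1 library, and no variation between cultures could be measured. Of 306 log2 fold changes of members under 13 alternatives, 286 kept their direction and their side of the threshold, 12 were no longer called, 7 were newly called and 1 changed sign. Where only the filter, threshold or test differed, the log2 fold change was the same by construction, so its direction could not change. A changed filter could not change the call of a retained member either. For OSM against vehicle, the log2 fold change ranged from 7.29 to 7.78 for Egfr, 1.95 to 2.04 for Hbegf and -2.38 to -1.83 for Erbb4. The change of sign was Erbb3 for IL-6 against vehicle, 0.00873 with total counts in place of -0.01, both within counting error of 0. For OSM against vehicle, 4 members were higher and 2 lower with 1.5-fold, and again 4 and 2 by the point estimate, which added Tgfa, Nrg1 and Erbb3. They were 1 and 0 both with 4-fold and with the exact test at an assumed coefficient of variation of 0.4, where Hbegf and Erbb4 were no longer called and Egfr was. For OSM against IL-6, 2 members were lower with 1.5-fold, and 1 (Egfr) was higher and 0 lower with 4-fold and at 0.4, where Hbegf, Tgfa and Erbb4 were no longer called. With the median of genes of like length subtracted, 0 were lower there. By the point estimate, 4 members were higher for OSM against IL-6, which added Nrg1. For IL-6 against vehicle, 1 member, Btc, was lower by the point estimate. The share of Erbb4 among the receptors by raw counts, without gene length, was 21.6% with vehicle, 16.9% with IL-6 and 4.24% with OSM. Apart from what a changed threshold, dispersion, scaling or length term does by construction, the cause of these differences was not tested.

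Of all genes, 575 were higher and 849 lower for OSM against vehicle, 274 and 269 for IL-6 against vehicle, and 659 and 846 for OSM against IL-6. With at least 50 counts these were 377 and 507, 31 and 25, and 386 and 482. With 1.5-fold they were 1328 and 1868, 457 and 445, and 1362 and 1856. With 4-fold they were 126 and 130, 34 and 62, and 151 and 124. By the point estimate they were 1559 and 2049, 1040 and 1023, and 1555 and 1986. The exact test gave 112 and 125 for IL-6 against vehicle at 0.2. At 0.4 it gave 43 and 11, 1 and 0, and 57 and 20. TMM factors over all genes of the table, an alternative chosen after seeing the data, gave 581 and 844, 274 and 269, and 659 and 843 and changed no call of a member.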
